A study of Mus musculus with 9 samples.

Results

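The enzymes and regulators of cholesterol and fatty acid synthesis were followed in MA-10 cells. This mouse line comes from a Leydig cell tumour, and a rise in cAMP makes it produce steroids. The set was a list of 40 genes named for their place in these pathways, and 39 of them had a probe whose only gene symbol was theirs, among 19938 such genes on the array. Acat2 had none and was left out. Of the 39, Idi1, Fdft1, Acaca and Me1 had 2 probes each, and the brighter was used. The cells were kept for 1.5 h in serum-free medium with DMSO, the vehicle (control, 3 arrays), with 10 µM forskolin, which activates adenylyl cyclase (3 arrays), or with 10 µM forskolin plus 1 mM AICAR (3 arrays). Inside cells AICAR becomes ZMP, which resembles AMP and thereby activates the kinase AMPK. Control titles read as untreated, whereas the treatment field of the same samples names DMSO. All AICAR-treated cells also received forskolin, and AICAR alone was not analysed here. The line is of tumour origin, and nothing in the labels says that replicates came from separate cultures, so the spread behind each p-value may be technical only.

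Cells build cholesterol from acetyl-CoA through mevalonate, isoprenoids and squalene, and build fatty acids from acetyl-CoA through malonyl-CoA. The genes of both routes are switched on by the membrane-bound SREBP transcription factors, which the escort protein SCAP carries to the Golgi for cleavage when sterols are scarce and which the INSIG proteins hold back in the endoplasmic reticulum when sterols are plentiful. Leydig cells use cholesterol as the substrate of testosterone synthesis, and AMPK is known to phosphorylate and inhibit acetyl-CoA carboxylase and HMG-CoA reductase.

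The forskolin response was present on these arrays. Star, which brings cholesterol into mitochondria, had log2 values of 8.56 to 8.61 in control, 10.33 to 10.55 with forskolin and 8.38 to 8.47 with AICAR added. The nuclear receptor gene Nr4a1 had 10.24 to 10.44, 12.98 to 13.02 and 12.51 to 12.60. The array medians lay between 7.14 and 7.19. Of 7 Leydig markers, 5 were measured, with group means of 8.34 to 11.88. Adipocyte and hepatocyte markers, which would mark other lipogenic cells, had group means of 4.64 to 8.0 over 5 genes and 5.0 to 5.83 over 3 genes, and none was called in any comparison. Of the 4 measured Sertoli markers Sox9 was lower with AICAR than with forskolin alone (log2 difference −0.46, adjusted p = 0.0013) and than control (−0.56, adjusted p = 0.00043). Of 4 macrophage markers Cd68 was lower in the same comparisons (−0.40 and −0.28, adjusted p = 0.0068 and 0.026). The other markers of these lists were not called. With AICAR against forskolin Amh, Dhh and Gata1 differed by 0.13, −0.07 and 0.11, and Ptprc, Adgre1 and Csf1r by −0.05, 0.10 and 0.12. With AICAR against control the same genes, in that order, differed by 0.08, −0.17 and −0.05, and by 0.07, 0.14 and 0.16. Among the Leydig markers, besides Star, Hsd3b1 was lower with AICAR than with forskolin alone (−0.59, adjusted p = 0.0437). The log2 of the summed Sertoli marker level was 10.90 to 10.91 in control, 10.73 to 10.82 with forskolin and 10.60 to 10.63 with AICAR, and that of the macrophage markers 8.39 to 8.40, 8.47 to 8.53 and 8.16 to 8.34. Sox9 (mean log2 value 9.66) and Cd68 (7.68) were the brightest genes in these sums. The part of these markers in the results below was not tested.

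Transcripts of sterol and fatty acid synthesis moved little in 1.5 h. With forskolin alone no member was called, that is, none reached an adjusted p under 0.05 in limma, against 0.692% of all genes tested (0.497% higher and 0.196% lower). At an unadjusted p under 0.05 there were 3 members, Dhcr7, Hsd17b7 and Elovl6, all higher, or 7.69% against 7.27% of all genes (3.72% higher). When AICAR was added to forskolin, Insig1 and Elovl6 fell and 37 members were not called, so that 5.13% of members were called against 5.1% of all genes (0.978% higher and 4.12% lower). At an unadjusted p under 0.05 there were 9 members, 3 higher (Mvd, Thrsp and Gpam) and 6 lower (Insig1, Idi1, Dhcr7, Fasn, Elovl6 and Fads1), or 23.1% against 24.1%. Against control, forskolin with AICAR lowered Insig1 and Fasn and left 37 uncalled, or 5.13% against 8.72% (3.04% higher and 5.68% lower). Here 6 members had an unadjusted p under 0.05, Hsd17b7 higher and Insig1, Cyp51, Ebp, Fasn and Fads1 lower, or 15.4% against 31.1%. In this fit the shares of members called lay near or below those of all genes. Without AICAR replicate 1 the calls over all genes rose to 16.7% and 23.8% in the comparisons with AICAR, and those among members were 3 and 2. The last comparison shares its control arrays with the first and its AICAR arrays with the second, so the 3 are not independent. In bulk RNA a change in the number of cells of a kind and a change in RNA per cell cannot be told apart.

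**Figure D1:**
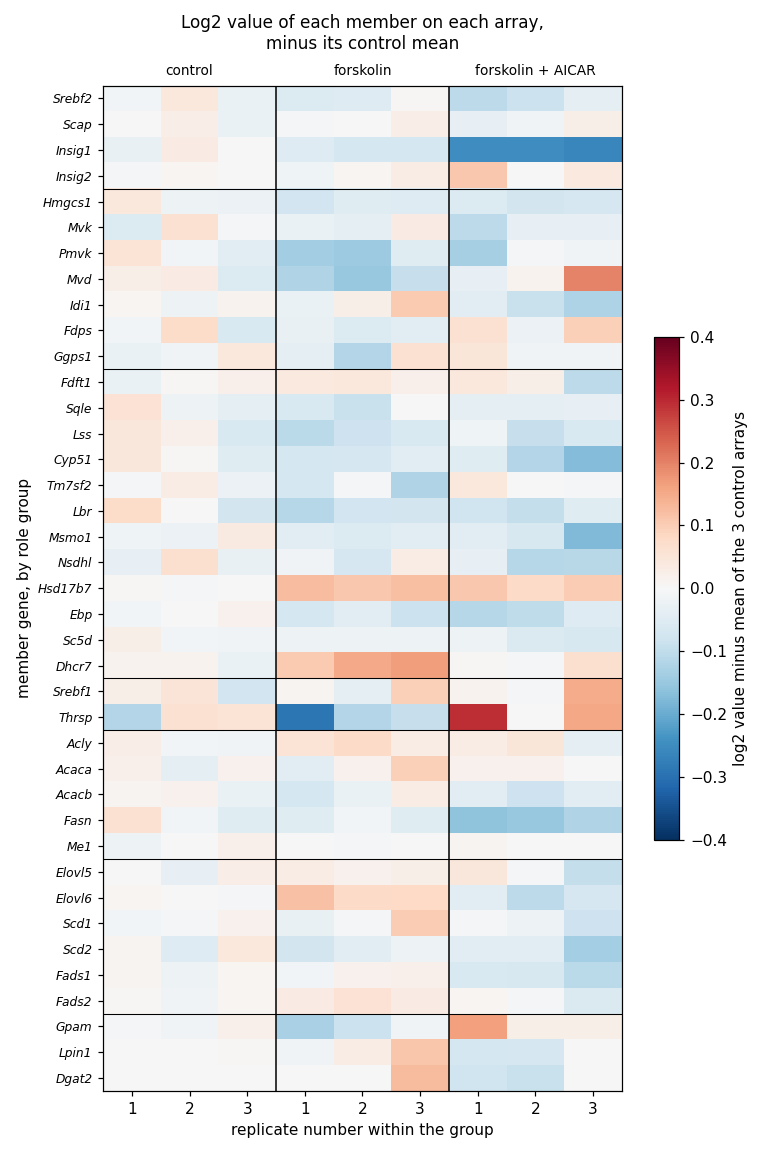
Log2 value of each of the 39 members (rows, grouped by role from sterol regulators at the top to glycerolipid synthesis at the bottom) on each of the 9 arrays (columns, by group and replicate number), minus the member's mean over the 3 control arrays. Insig1 is dark blue on all 3 AICAR arrays, Hsd17b7 and Dhcr7 are red on all 3 forskolin arrays, Thrsp varies from array to array, and most other rows are pale.

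The precision of the arrays bounds the differences between these sets of samples. As the spread may be technical only, the intervals may be too narrow for separate cultures. The median standard error of a member's log2 difference was 0.04, and the 95% intervals lay within a 1.5-fold change for all 39 members in all 3 comparisons. Within 1.2-fold lay the intervals of 38 members for forskolin against control, of 36 for AICAR added to forskolin and of 37 for the combination against control. Those that reached further were Thrsp in every comparison, Insig1 in both comparisons with AICAR, and Mvd for AICAR against forskolin. The group means of 28 members spanned less than 0.1 log2 units over the 3 groups, and those of 2 members, Thrsp and Insig1, more than 0.2.

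**Figure D2:**
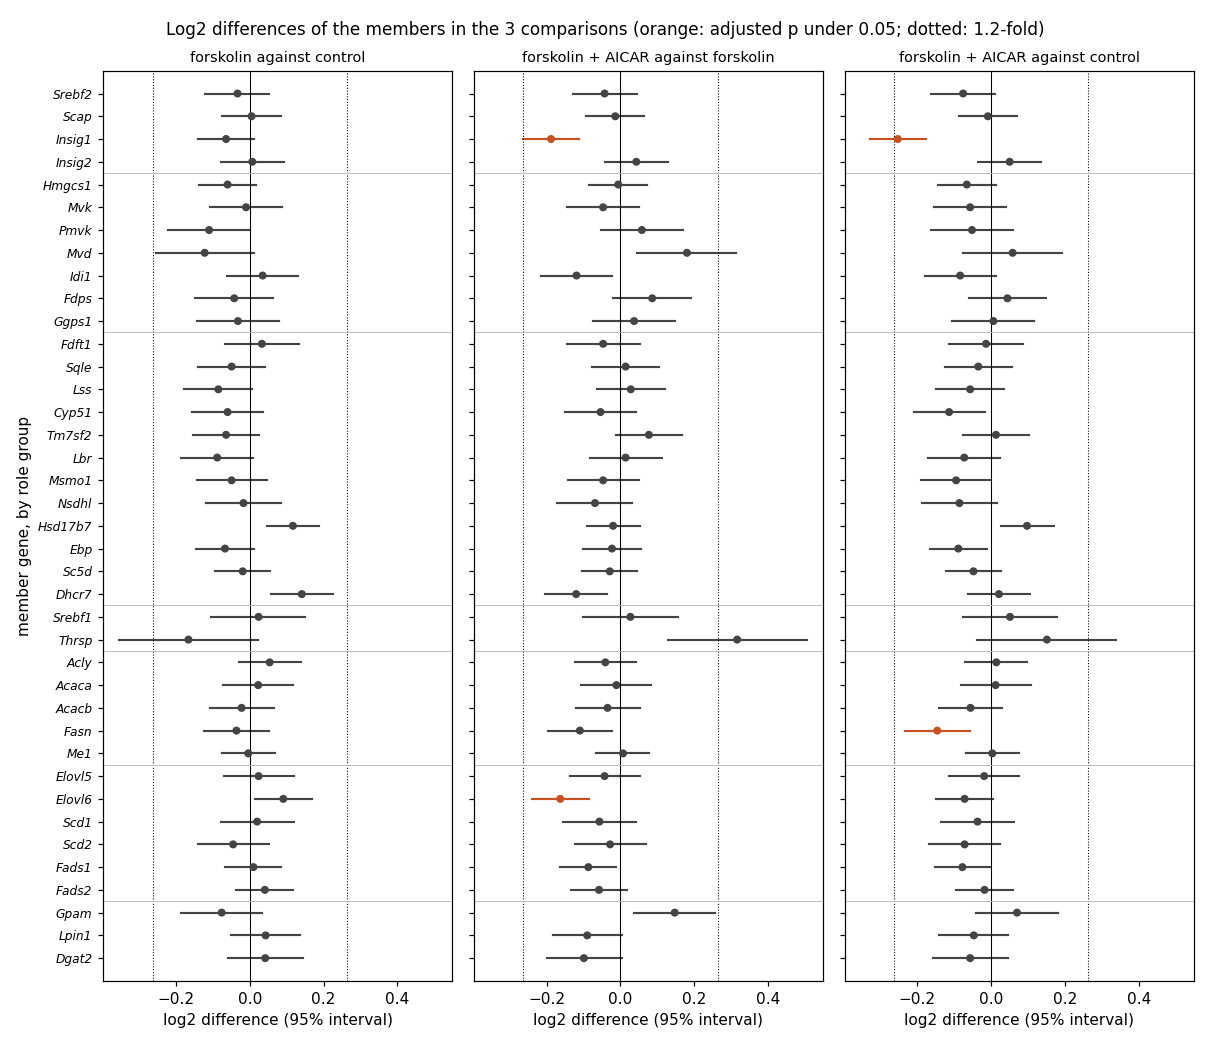
Log2 difference of each member (points) with its 95% interval (lines) in the 3 comparisons, with members grouped by role along the vertical axis. Orange marks an adjusted p under 0.05, which Insig1 and Elovl6 reached with AICAR against forskolin and Insig1 and Fasn with AICAR against control, and dotted lines mark a 1.2-fold change.

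The start regions of the members shared letters that the choice of genes had not used. RefSeq promoter windows (GRCm38.p6, 250 bases before to 50 after the start) were at hand for 32 members. CCAAT, the binding letters of NF-Y, a common partner of SREBP, was present on either strand in 27 of them (84.4%), against 41.7% of the tested genes with a window and 43% of those with a mean log2 value of at least 8. Over single windows the shares were 66.7% of 42 member windows and 37.4% of all. The sterol regulatory element searched as TCACNCCAC was found in 1 member, Hmgcs1 (3.12% against 1.4% of tested genes). TGACG, the shorter form of the cAMP response element, was in 12 members (37.5% against 28% of tested genes, and 38% of those at 8 or above), Insig1, Hmgcs1 and Srebf2 among them, and the full TGACGTCA, which contains it, in 1, Elovl5 (3.12% against 2.72%). GGGCGG, the letters bound by Sp1, was in 23 members (71.9% against 52.9%, and 73.3% at 8 or above). A match describes these letters alone and shows no binding. The search does not cover elements written in other letters or lying outside the window, so a missing match does not show that a gene lacks the element.

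The windows shown are those of the called members Insig1, Fasn and Elovl6, and that of Hmgcs1, the member with an exact match to the sterol element searched. Each is from RefSeq (GRCm38.p6), written 5′ to 3′ on the strand of its gene, with capitals where the CCAAT letters, the TGACG letters or the sterol element match on either strand. A reverse match of the first reads ATTGG, and a reverse match of the second reads CGTCA.
Insig1 (chr5:28071162-28071461, plus strand): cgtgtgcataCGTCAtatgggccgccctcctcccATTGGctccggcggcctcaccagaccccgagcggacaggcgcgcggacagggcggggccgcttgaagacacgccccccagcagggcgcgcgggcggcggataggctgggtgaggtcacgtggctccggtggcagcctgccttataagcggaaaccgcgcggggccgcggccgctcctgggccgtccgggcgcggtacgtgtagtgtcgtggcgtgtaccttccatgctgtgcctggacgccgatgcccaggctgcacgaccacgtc
Hmgcs1 (chr13:119690101-119690400, plus strand): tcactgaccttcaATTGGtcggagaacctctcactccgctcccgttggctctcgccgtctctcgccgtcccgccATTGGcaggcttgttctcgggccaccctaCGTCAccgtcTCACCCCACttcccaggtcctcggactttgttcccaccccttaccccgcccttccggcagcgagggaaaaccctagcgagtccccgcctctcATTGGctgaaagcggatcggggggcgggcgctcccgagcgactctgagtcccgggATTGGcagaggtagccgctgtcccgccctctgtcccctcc
Fasn (chr11:120824498-120824797, minus strand): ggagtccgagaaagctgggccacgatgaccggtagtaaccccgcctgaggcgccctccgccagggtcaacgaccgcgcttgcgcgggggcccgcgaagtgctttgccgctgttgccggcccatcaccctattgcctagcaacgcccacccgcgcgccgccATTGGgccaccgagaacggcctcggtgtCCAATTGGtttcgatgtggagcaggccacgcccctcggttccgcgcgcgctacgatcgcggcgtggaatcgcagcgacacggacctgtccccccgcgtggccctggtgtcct
Elovl6 (chr3:129532136-129532435, plus strand): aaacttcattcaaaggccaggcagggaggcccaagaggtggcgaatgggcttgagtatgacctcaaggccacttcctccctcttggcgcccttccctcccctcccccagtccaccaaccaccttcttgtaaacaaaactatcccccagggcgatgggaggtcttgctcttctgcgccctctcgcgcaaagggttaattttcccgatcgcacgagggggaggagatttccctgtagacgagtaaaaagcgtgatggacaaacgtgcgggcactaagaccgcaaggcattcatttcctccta
The Insig1 window held TGACG and CCAAT once each in reverse, at −240 and −216 from the start. In the Hmgcs1 window the sterol element lay at −137, a reverse TGACG at −147, and reverse CCAAT at −237, −176, −45 and 10. Fasn held CCAAT in 3 places, at −90, −62 and −59, of which the last 2 overlap. In the Elovl6 window none of the 3 motifs was present.

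Among the sterol sensors and regulators, Insig1 was the member called in both comparisons with AICAR. Insig1 encodes the protein that retains SCAP and SREBP in the endoplasmic reticulum and is itself a well known SREBP target. Its control values were 12.004, 12.067 and 12.033, its forskolin values 11.98, 11.96 and 11.96, and its values with AICAR 11.79, 11.79 and 11.77. The 3 groups did not overlap: every forskolin array lay below every control array, and every AICAR array lay below both. With AICAR it fell 1.14-fold from its forskolin level (log2 difference −0.19, SE 0.03, adjusted p = 0.012) and 1.19-fold from control (−0.25, SE 0.03, adjusted p = 0.0026). The step from control to forskolin did not pass the test (−0.06, adjusted p = 0.77). Leaving out any 1 array kept both calls, with adjusted p of at most 0.0495 and 0.0162. Without replicate 3 of every group, the fall from forskolin was of the same size (−0.19) and not called (adjusted p = 0.11).

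The gene for SREBP-2 itself, Srebf2, had 12.08, 12.13 and 12.06 in control, 12.04, 12.04 and 12.10 with forskolin, and 11.99, 12.01 and 12.06 with AICAR. All AICAR arrays were below all control arrays by a small margin, and the difference was not called (−0.08, SE 0.04, adjusted p = 0.2). Scap, the escort protein gene, had group means of 11.56, 11.57 and 11.56. Insig2, the paralogue of Insig1, had 9.42 in control, 9.43 with forskolin and 9.47 with AICAR, and its difference from control to AICAR was 0.05 (95% interval −0.04 to 0.14). The interval of Insig1 in that comparison ran from −0.33 to −0.18, and the difference between the paralogues was not tested.

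Of the 7 measured mevalonate and isoprenoid genes none was called by limma in any comparison. At an unadjusted p under 0.05 there were 0, 2 and 0, or 0%, 28.6% and 0%, against 7.27%, 24.1% and 31.1% of all genes. The measured genes opened with Hmgcs1, which makes HMG-CoA. Its values were 12.53, 12.47 and 12.47 in control, 12.41, 12.44 and 12.44 with forskolin, and 12.43, 12.41 and 12.42 with AICAR. Both treated groups lay below control without overlap, by 0.06 and 0.07 log2 units, and neither difference passed (adjusted p = 0.82 and 0.22). In this group 6 of 7 log2 differences were below 0 with forskolin. The median of the group was −0.042, against 0.003 over all genes and −0.001 over those with a mean log2 value of at least 6. Among genes with a mean of at least 8, 13.2% lay below control without overlap and 6.21% above, and their share below 0 was not counted. Pmvk and Mvd, the phosphomevalonate kinase and the decarboxylase, were lowest at −0.11 (adjusted p = 0.69) and −0.12 (adjusted p = 0.75).

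Mvd lay on the other side with AICAR. It had 10.66, 10.67 and 10.58 in control, 10.51, 10.48 and 10.54 with forskolin, and 10.60, 10.65 and 10.83 with AICAR, and replicate 3 stood above the other AICAR arrays. Its difference from forskolin was 0.18 (SE 0.06, adjusted p = 0.12), and it was called without AICAR replicate 1 (adjusted p = 0.0364) and with array weights (0.0124). Without AICAR replicate 3 the difference was 0.11 (adjusted p = 0.236). Idi1, the isopentenyl diphosphate isomerase, lay in the opposite direction (−0.12, SE 0.04, adjusted p = 0.14), and its other probe gave −0.10. At an unadjusted p under 0.05 these were the 2 genes of the group with AICAR against forskolin. Fdps and Ggps1, which make farnesyl and geranylgeranyl diphosphate, had differences of 0.09 and 0.04, and Mvk, mevalonate kinase, −0.05.

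None of the 12 genes from squalene to cholesterol was called by limma. At an unadjusted p under 0.05 there were 2, 1 and 3, or 16.7%, 8.33% and 25%, against 7.27%, 24.1% and 31.1% of all genes. The group held 2 members that stood higher on every forskolin array. Dhcr7, the reductase of the last step, had 11.58, 11.58 and 11.54 in control, 11.67, 11.72 and 11.74 with forskolin, and 11.57, 11.56 and 11.63 with AICAR. It was above control with forskolin (log2 difference 0.14, SE 0.04, adjusted p = 0.23) and near its control mean with AICAR (−0.12 from forskolin, adjusted p = 0.1). Hsd17b7, a ketosteroid reductase of sterol demethylation, had 11.46, 11.45 and 11.45 in control, 11.57, 11.56 and 11.57 with forskolin, and 11.56, 11.53 and 11.55 with AICAR. It stayed above control in both treated groups, by 0.12 (SE 0.03, adjusted p = 0.26) and 0.10 (SE 0.03, adjusted p = 0.084). Both passed the forskolin comparison with a trended and robust prior or with array weights, at adjusted p between 0.0302 and 0.0493, and in none of the other 17 alternatives.

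In 9 of the 12 the log2 difference with forskolin was below 0. The median of the group was −0.049, against 0.003 over all genes and −0.001 over those with a mean log2 value of at least 6. Of genes with a mean of at least 8, 13.2% lay below control without overlap and 6.21% above. The share of such genes with a difference below 0 was not counted. Sqle, squalene epoxidase and a rate-limiting step, had 12.098, 12.022 and 12.003 in control, 11.98, 11.95 and 12.04 with forskolin, and 12.01, 12.01 and 12.01 with AICAR, so the groups overlapped. Cyp51, which removes a methyl group from lanosterol, was lower with AICAR than control (−0.11, SE 0.04, adjusted p = 0.11), and was called in 2 of 19 alternatives, without AICAR replicate 1 (adjusted p = 0.0387) and with array weights (0.0191). Without AICAR replicate 3 it was −0.08 (adjusted p = 0.269). Ebp, the sterol isomerase, and Msmo1, the methylsterol oxidase, had −0.09 (adjusted p = 0.12) and −0.10 (adjusted p = 0.16). Lss, Lbr, Tm7sf2, Nsdhl, Sc5d and Fdft1, the remaining enzymes between farnesyl diphosphate and cholesterol, had differences between −0.09 and 0.01 for the combination against control.

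Small shifts of one sign were counted by asking in how many members the arrays of the 2 groups did not overlap. With forskolin 8 of 39 members lay below control on every array, or 20.5% against 7.13% of all genes. As deposited, all 8 were sterol genes (Insig1, Hmgcs1, Pmvk, Mvd, Lbr, Msmo1, Ebp and Sc5d), and 23 of the 39 members were sterol genes. This split was not counted under other scalings. Some margins were very small: for Sc5d the lowest control value was 11.739 and the highest forskolin value 11.733. For Lbr these values were both 9.82 as rounded here. Above control lay 5 members, or 12.8% against 6.85%: Hsd17b7, Dhcr7, Acly, Elovl6 and Fads2. With AICAR added to forskolin 7 members were lower and 4 higher (17.9% and 10.3%, against 12.2% and 11.5% of all genes). Against control, the combination had 12 members lower and 2 higher (30.8% and 5.13%, against 14.3% and 15.2%).

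These counts depend on which genes they are read against. All members had a mean log2 value of at least 8. Among the 8716 genes at that level the shares lower were 13.2% with forskolin and 26% with the combination against control. These lay nearer than the shares of all genes to the members' 20.5% and 30.8%. With AICAR added to forskolin the shares at that level were 21% lower and 8.69% higher. The members' 17.9% lower lay above the share of all genes and below that of genes at this level. At a mean of at least 10, with 30 members and 3307 genes, 20% of members were lower with forskolin, against 14.5% of genes. With the combination against control the shares lower were 36.7% and 20.8%, and with AICAR added to forskolin 23.3% and 16.6%. Scaling moved the counts in both directions. After quantile normalization of the deposited values, the 12 members below control with the combination became 5, or 12.8% against 10.1%, and after median centring 16, or 41% against 14.9%. The 8 below control with forskolin became 9 (23.1% against 10.3%) and 17 (43.6% against 20%). These shares are over all genes. Shares among genes with a mean of at least 8 were not counted under these scalings, so the rescaled counts lack that comparison. The median difference of the members from control to the combination was −0.047 as deposited, −0.057 after median centring and 0.005 after quantile normalization (all genes 0.025, 0.015 and 0.043).

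Of the lipogenic regulators, Srebf1, which encodes SREBP-1, did not separate the groups. It had 10.02, 10.05 and 9.92 in control, 10.00, 9.96 and 10.09 with forskolin, and 10.01, 9.98 and 10.14 with AICAR, and the interval of its change from forskolin to AICAR ran from −0.10 to 0.16. Thrsp (Spot 14), a small protein that promotes lipogenesis, had the largest difference of any member with AICAR. Its values were 9.82, 10.00 and 9.99 in control, 9.65, 9.82 and 9.84 with forskolin, and 10.23, 9.94 and 10.09 with AICAR. The AICAR arrays lay above the forskolin arrays but overlapped the controls, and their spread was the widest among the members (SD 0.15). The difference from forskolin was 0.32 (SE 0.08, adjusted p = 0.064). It passed in 3 of 19 alternatives: after quantile normalization (adjusted p = 0.0228), with a trended and robust prior (0.0355) and without AICAR replicate 2 (0.0498). Array weights lowered the difference to 0.20 (adjusted p = 0.0509), and without forskolin replicate 1 it was 0.255 (adjusted p = 0.165).

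**Figure D3:**
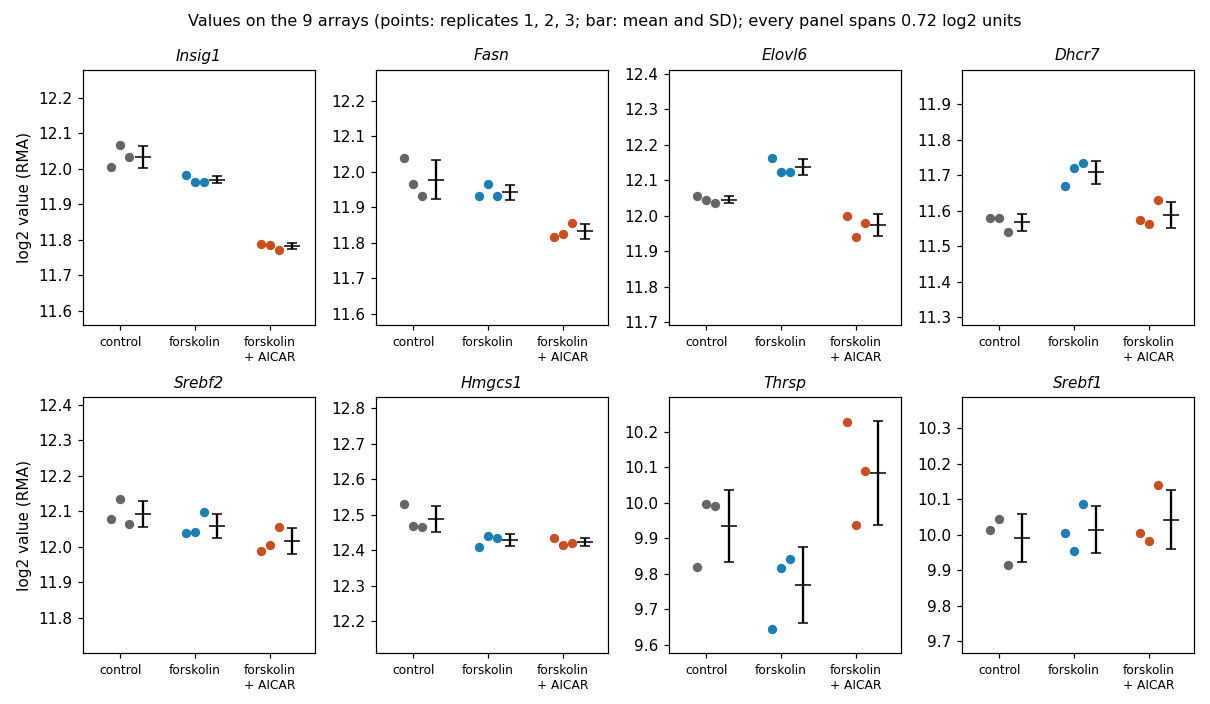
Log2 values of 8 members on the 9 arrays (points, in replicate order within each group), with the mean and SD of each group beside them. Each panel spans 0.72 log2 units on a scale of its own. Insig1 separates all 3 groups, Fasn is lower on all 3 AICAR arrays, Elovl6 and Dhcr7 are higher with forskolin alone, and Srebf1 overlaps throughout.

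Fatty acid synthesis proper was represented by 5 genes, of which Fasn, the fatty acid synthase, was called lower with AICAR against control. It had 12.04, 11.97 and 11.93 in control, 11.93, 11.97 and 11.93 with forskolin, and 11.82, 11.82 and 11.86 with AICAR. The AICAR arrays lay below all others. Fasn fell 1.11-fold from control (−0.15, SE 0.04, adjusted p = 0.0492), and its difference from forskolin was −0.11 (SE 0.04, adjusted p = 0.14). The call from control was lost when any 1 of the 9 arrays was left out, at adjusted p from 0.0509 (without AICAR replicate 1) to 0.134 (without AICAR replicate 2), and after quantile normalization (0.149). A replicate block (0.109), a fit of the 2 groups alone (0.109) and leaving out replicate 3 of every group (0.103) also lost it.

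The substrates and the committed step of the same pathway gave smaller differences. Acaca, the acetyl-CoA carboxylase of the cytosol, had 10.31, 10.25 and 10.31 in control, 10.25, 10.31 and 10.38 with forskolin, and 10.31, 10.31 and 10.29 with AICAR. Its interval for AICAR against forskolin was −0.11 to 0.08, and its dimmer probe gave 0.02. Acacb, the mitochondrial carboxylase, had a difference of −0.04 in that comparison. Acly, which makes cytosolic acetyl-CoA from citrate, lay above control on every forskolin array by 0.05 (adjusted p = 0.87). Me1, the malic enzyme that supplies NADPH, had group means of 12.63, 12.63 and 12.63.

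All 6 elongation and desaturation genes had log2 differences below 0 with AICAR against forskolin as deposited, and Elovl6 was called. Scd2 turned to 0.004 after quantile normalization, and over the 19 alternatives Scd1 and Scd2 reached up to 0.006 and 0.017. Elovl6 lengthens palmitate to stearate. Its values were 12.05, 12.04 and 12.04 in control, 12.16, 12.12 and 12.12 with forskolin, and 11.999, 11.94 and 11.98 with AICAR. Forskolin arrays stood above control and AICAR arrays below it, with no overlap. From forskolin it fell 1.12-fold with AICAR (−0.16, SE 0.03, adjusted p = 0.027), whereas the difference of forskolin from control (0.09, SE 0.03, adjusted p = 0.55) and the difference of AICAR from control (−0.07, adjusted p = 0.18) did not pass. The call was lost without control replicate 2, without any 1 forskolin array or without AICAR replicate 2 (adjusted p from 0.055 to 0.093), and after quantile normalization (0.082). Median centring (0.062), a replicate block (0.079), a fit of the 2 groups alone (0.091) and leaving out replicate 3 of every group (0.14) also lost it.

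Fads1, the delta-5 desaturase, was next with −0.09 (SE 0.03, adjusted p = 0.16), and Fads2, the delta-6 desaturase, had −0.06 (adjusted p = 0.31). The stearoyl-CoA desaturase gene Scd1 had 13.33, 13.33 and 13.36 in control, 13.31, 13.33 and 13.44 with forskolin, and 13.33, 13.32 and 13.26 with AICAR, and the groups overlapped. Scd2 had −0.03 and Elovl5 −0.04. The median of the 6 genes was −0.058, against 0.023 over all genes and 0.008 over those with a mean log2 value of at least 6. Of genes with a mean of at least 8, 21% lay lower without overlap in this comparison and 8.69% higher. The share of such genes with a difference below 0 was not counted.

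Glycerolipid synthesis was measured through 3 genes, none called by limma in any comparison. At an unadjusted p under 0.05 there was 1 (Gpam) with AICAR against forskolin, or 33.3% against 24.1% of all genes. Gpam, which adds the first acyl chain to glycerol phosphate, had 11.36, 11.35 and 11.39 in control, 11.23, 11.28 and 11.35 with forskolin, and 11.53, 11.39 and 11.39 with AICAR. Its difference from forskolin was 0.15 (SE 0.05, adjusted p = 0.12), and AICAR replicate 1 stood above the others. Lpin1, a phosphatidate phosphatase, and Dgat2, which makes triglyceride, had −0.09 (adjusted p = 0.22) and −0.10 (adjusted p = 0.22). On 6 of the 9 arrays Dgat2 had the same value, 8.40, at the deposited precision. Such repeated values come with these data: 10 of 39 members and 34.6% of all genes shared 1 value on at least 3 arrays, Fasn among them.

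**Figure D4:**
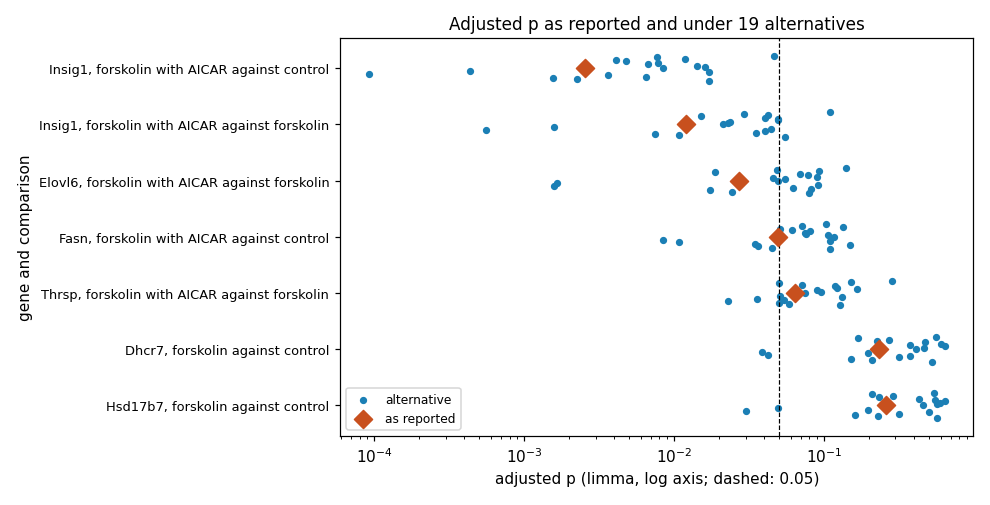
Adjusted p from limma (horizontal log axis) for 7 pairs of member and comparison (vertical axis), as reported (diamonds) and under 19 alternatives (points), with the threshold of 0.05 dashed. Insig1 against control stays left of the line in all 19, Insig1 against forskolin in 17, Elovl6 in 9 and Fasn in 6.

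Of 57 further genes of these pathways and of the LXR receptors, 46 were measured: 11 of 19 other sterol genes, 27 of 29 other lipogenic genes and 8 of 9 LXR factors and targets. With forskolin 1 of them was called, or 2.17% against 0.692% of all genes. It was Fdx1, the ferredoxin that passes electrons to the side-chain cleavage enzyme and which rose from 9.75 to 9.86 in control to 10.66 to 10.72 (log2 difference 0.90, SE 0.05, adjusted p = 1.6e-05). With AICAR added, 1 rose and 3 fell, or 8.7% called against 5.1%. Stard4, a cytosolic sterol carrier, rose (0.19, SE 0.04, adjusted p = 0.041), and Fdx1 (−0.34, adjusted p = 0.0033), Abca1 (−0.20, adjusted p = 0.036) and Spring1 (−0.17, adjusted p = 0.036) fell. Abca1 exports cholesterol from the cell, and Spring1 is needed for SREBP cleavage. Against control 8.7% were called, against 8.72% of all genes: Fdx1 stayed higher (0.56), and Mid1ip1 (−0.21, adjusted p = 0.048), Abca1 (−0.19, adjusted p = 0.036) and Oxsm (−0.18, adjusted p = 0.038) were lower. Mid1ip1 binds acetyl-CoA carboxylase and promotes its assembly, and Oxsm is the condensing enzyme of mitochondrial fatty acid synthesis. The calls of Stard4, Spring1, Abca1, Mid1ip1 and Oxsm were each lost when single arrays were left out, for at least 6 of the 9 arrays.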

How the data were processed

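RNA of 9 samples was hybridised to 1 array each. The values are log2 expression per probe, normalized and summarised by the authors with RMA, and Partek was also used, per the submitters' processing notes; versions are not given in the sources used here. The 9 deposited columns were used as they stand. Of 35557 probes, 21789 carried 1 gene symbol in the platform annotation, 1621 several and 12147 none; for each of 19938 genes the probe with the highest mean was kept.

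All 9 arrays were fitted together with limma 3.58.1 (R 4.3.3; lmFit and eBayes), with group as the only term, and p-values were adjusted by Benjamini-Hochberg over all genes; a gene with an adjusted p under 0.05 was called. The fit was tested on simulated data. SE and 95% intervals come from the moderated variance. A fold is 2 raised to the log2 difference. Group values are means with SD over 3 arrays, and the number of arrays limits the precision. Groups do not overlap where every array of one lies beyond every array of the other.

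The members and gene lists were chosen with earlier results of these data known. Array values are given for called members and for Srebf2, Srebf1, Insig1, Hmgcs1, Sqle, Acaca, Fasn and Scd1; in each role group the member with the largest difference is named, and of the other lists up to 3 called genes. Values of Dhcr7, Hsd17b7, Mvd, Thrsp and Gpam were added after their values were seen. Alternatives were a replicate block, filters on the mean, quantile normalization, median centring, another variance prior, array weights, fits of 2 groups, the mean of a gene's probes and left-out arrays. Counts of groups that do not overlap under other scalings were added after seeing the data. Promoter windows were searched by exact letters on both strands. Germ cell markers (4 measured) had no call.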

Additional observations from a re-analysis of the deposited data

How the results depend on the processing

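With 3 arrays a group, a member's 95% interval reached a median of 0.093 log2 units to either side of its difference. For forskolin against control, 0 of 39 members were called as reported (0.692% of all genes) and 0 without any single array. With a trended and robust prior (0.958% of all genes) or with array weights (2.19%) 2 were called, Dhcr7 and Hsd17b7. For AICAR added to forskolin, 2 members were called as reported (5.1% of all genes). After quantile normalization 3 were called (5.48%), 2 higher and 1 lower. With median centring (5.09%) or in a fit of the 2 groups alone (2.49%) 1 was called. The trended and robust prior gave 6 (6.38%), array weights 10 (28.7%) and leaving out replicate 3 of every group 0 (1.21%). Leaving out single arrays gave 1 (without control replicate 2 or any 1 forskolin array) to 3 (without AICAR replicate 1, 16.7%). For the combination against control, 2 were called as reported (8.72% of all genes). After quantile normalization (6.93%), in a fit of the 2 groups alone (3.8%) or without replicate 3 of every group (1.89%) 1 was called. The trended and robust prior gave 4 (9.99%) and array weights 8 (33.2%). Leaving out single arrays gave 1 to 2, with 2 only without AICAR replicate 1 (23.8%). The cause of these changes was not tested. No called difference of a member changed sign under any of the 19 alternatives.

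The groups share replicate numbers, and the labels do not say whether these mark a shared culture or batch. Correlations of deviations between arrays of the same number ran from −0.406 to 0.329, and 0 of 9 arrays correlated best with its own number. Such correlations cannot show whether arrays of the same number were handled together. With the replicate number as a block, 0, 0 and 1 members were called in the 3 comparisons, in the order above. The shares of all genes called were 0.416%, 2.92% and 4.38%. The call kept by limma was Insig1 against control (adjusted p = 0.0172), and Insig1 against forskolin had an adjusted p of 0.0554.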
